A study of Homo sapiens with 6 samples.

Results

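The LDL-receptor-related proteins and the sortilin-type receptors are transmembrane receptors that carry ligands from the cell surface or the Golgi into endosomes. The 10 genes described here, LRP1, LRP2, LRP4, LRP8, LRP10, LRP11, LRP12, VLDLR, SORL1 and SORT1, are 10 of the 19202 genes in the deposited count table, and all 10 were found by their symbols. They were chosen by family with their differences between resistant and control cells already known, so those differences are given as a description and support nothing by themselves. RNA sequencing compared 3 control libraries (sorafenib sensitive) with 3 libraries of sorafenib-resistant cells, all of MHCC97H, an established human liver cancer line. Sorafenib is a drug that inhibits several kinases. The labels leave unsaid how resistance was raised, whether the resistant cells are a clone or a pool, and whether drug was present at harvest. Replicates are not said to be separate cultures either, so the spread between them may be technical.

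Receptors of the LDL receptor family bind ligands outside the cell through small cysteine-rich repeats, enter through clathrin-coated pits, release their cargo in acidic endosomes and return to the surface. In liver, LRP1 is known for clearing remnant lipoproteins and complexes of proteases with their inhibitors. Sortilin and SORL1 instead carry a VPS10P domain and move proteins between the Golgi and endosomes, with retromer returning them.

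Totals ran from 1913469 counts in control replicate 1 to 5345272 in control replicate 2, so 1 count was worth 0.188 to 0.514 CPM, the usual count scaled to library size, here with TMM-adjusted library totals. Of the 8 hepatocyte markers HNF4A was the highest, and the summed level of the list was 123 to 131 CPM in control and 73.0 to 93.3 CPM in resistant libraries, with ALB, APOB and SERPINA1 called lower among the 6 that were tested and APOA1 and TTR near 0. The 4 epithelial markers summed to 1719 to 2308 CPM. Most of that came from the keratins KRT8 (means of 1276 and 1100 CPM, control then resistant) and KRT18 (810 and 758 CPM). EPCAM, on the same list, was near 0 at means of 2.23 and 0.453 CPM and was not tested. The 2 hepatocellular carcinoma markers summed to at most 4.11 CPM. The 6 leukocyte markers summed to at most 19.1 CPM and the 6 fibroblast markers to at most 41.1 CPM. The epithelial marker CDH1 was called lower, from 41.1, 10.5 and 11.1 CPM in control to 7.04, 10.3 and 9.21 CPM in resistant replicates 1, 2 and 3 (log2 fold change -1.13, SE 0.37, adjusted p = 0.0219 by edgeR's quasi-likelihood test). That call rested on control replicate 1, without which the value was -0.28 (adjusted p = 0.665), and it was also lost without resistant replicate 1 (0.0865) and in limma-voom (0.182). The 5 endothelial markers summed to 50.2 to 68.2 CPM in control and 40.6 to 133 CPM in resistant libraries, the highest being resistant replicate 3. The part of these markers in the receptor values was not tested. In bulk RNA, fewer cells that express a gene and less RNA per cell cannot be told apart.

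Across the table, 10804 genes passed the filter on low counts and were tested with edgeR's quasi-likelihood test, and a gene is called at an adjusted p under 0.05. Of the tested genes 24.1% were called, 12.3% lower and 11.7% higher in resistant cells. Of the 10 receptors, 9 passed the filter and LRP11 did not. LRP1, LRP2, LRP4, LRP10 and LRP12 were among the genes called lower, 0 were called higher, and VLDLR, LRP8, SORL1 and SORT1 were not called. The median log2 fold change (resistant over control) was -0.47 over the 9 tested receptors and -0.01 over all tested genes. Because the genes were picked with this contrast in view, nothing is read from the count.

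**Figure D1:**
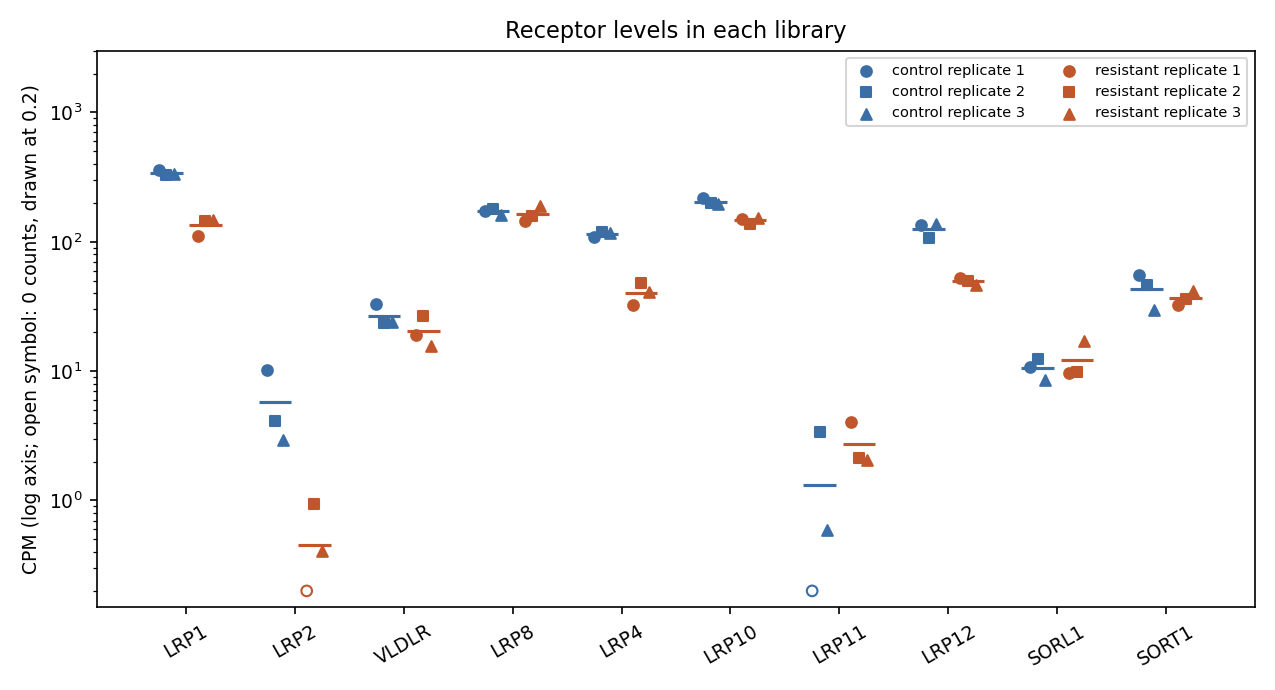
Level of each receptor in each library, in CPM on a log axis; symbols mark the replicate, colours the group, short lines the group means, and open symbols a count of 0. For LRP1, LRP2, LRP4, LRP10 and LRP12 every resistant library lies below every control library, and for the other 5 receptors the groups overlap. Of all 10804 tested genes, 2039 likewise had every resistant library below every control library, and 2074 had every one above.

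RefSeq promoter entries matched 8 of the 10 receptors, all but LRP4 and LRP12. The stretches below are 90 bases upstream of both the RefSeq and the GENCODE start (GRCh38.p14, 5′ to 3′ on the gene's strand), for 3 receptors called lower and 2 that were not, so that the letters at their starts can be compared. Capitals mark matches to the motifs named in the next paragraph. They come from chr12:57128393-57128482 for LRP1 (plus strand), chr2:169362686-169362775 for LRP2 (minus), chr14:22871523-22871612 for LRP10 (plus), chr1:53328071-53328160 for LRP8 (minus) and chr1:109397952-109398041 for SORT1 (minus).
LRP1: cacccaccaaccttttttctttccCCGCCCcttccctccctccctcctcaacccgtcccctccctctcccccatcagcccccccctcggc
LRP2: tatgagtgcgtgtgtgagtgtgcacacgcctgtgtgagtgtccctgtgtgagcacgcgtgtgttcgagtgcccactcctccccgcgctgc
LRP10: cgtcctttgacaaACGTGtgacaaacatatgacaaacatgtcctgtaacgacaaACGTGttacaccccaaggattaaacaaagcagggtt
LRP8: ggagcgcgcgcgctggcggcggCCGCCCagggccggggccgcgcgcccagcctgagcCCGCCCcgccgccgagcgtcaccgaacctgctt
SORT1: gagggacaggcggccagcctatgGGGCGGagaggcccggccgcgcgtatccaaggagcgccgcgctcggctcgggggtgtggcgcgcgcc

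The 250 bases upstream of the RefSeq start were searched on both strands for 6 sets of letters. The GC box GGGCGG was in 7 of the 8 receptor promoters (all but LRP10), against 42.6% of 35116 promoters of the same length. The CCAAT box CCAAT was in LRP10 and SORT1, against 32.0% of all promoters, and the hypoxia response core ACGTG in LRP10 and SORL1, against 18.5%. The TATA box TATAAA (10.7% of all), the sterol regulatory element TCACNCCAC (0.9%) and the AP-1 site TGANTCA (6.6%) were in 0 of the 8. LRP1 and LRP2, called lower, and LRP8 and SORT1, not called, all held GC boxes. The GC content of these windows was 67.6% for LRP1, 66.8% for LRP2, 77.2% for LRP8, 74.0% for SORT1 and 51.6% for LRP10, with a median of 58.0% over all promoters. These matches describe letters and not bound factors.

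LRP1 and LRP2 are the giant members of the family. LRP1, the remnant and protease-complex receptor, had 359, 328 and 335 CPM in control replicates 1, 2 and 3 and 111, 145 and 149 CPM in resistant replicates 1, 2 and 3. The groups lay far apart: the lowest control library was 2.21 times the highest resistant library. Its mean was 341 ± 16.6 CPM in control cells against 135 ± 20.5 CPM (SD, n = 3 each), with a log2 fold change of -1.33 (SE 0.11). It had the most counts of the 10 receptors in control cells, 3581 over 3 libraries, not scaled to transcript length. In resistant cells its 1752 summed counts were fewer than those of LRP8 (2127) and LRP10 (1886). LRP1 was nonetheless above LRP10 in resistant replicate 2, with CPM ratios of 0.742, 1.04 and 0.977 in resistant replicates 1, 2 and 3.

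LRP2, also called megalin, takes up vitamin carriers and filtered proteins in kidney tubules and is not a typical liver receptor. It had 10.3, 4.14 and 2.93 CPM in control replicates 1, 2 and 3, and 0, 0.940 and 0.409 CPM in resistant replicates 1, 2 and 3. Every library was low, control replicate 1, the shallowest library, was the highest, and the groups did not overlap. These levels rested on 52 control and 6 resistant counts in all. The count of 0 in resistant replicate 1 allows up to 0.812 CPM (3 counts) if each count is 1 fragment, and more if fragments were counted repeatedly. The ratio of the summed counts, resistant over control, was 0.0959, with an exact 95% interval of 0.0336 to 0.223, or 0.0186 to 0.313 on halved counts; the intervals cover counting error only. The fitted log2 fold change was -3.46 (SE 0.81), and it was -2.86 without control replicate 1 and -4.39 without resistant replicate 2.

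Both genes have long transcripts, 14897 bases for LRP1 and 15808 bases for LRP2 in GENCODE 29. The median log2 fold change was -0.12 over the 443 tested genes whose main transcript reaches 10 kb, with quartiles of -0.43 and 0.14, and 0.05 over the 2384 genes below 2 kb. Among the 443 long genes, 18 had a log2 fold change at or below that of LRP1, LRP1 included, and LRP2 had the lowest value. SORL1, with a transcript of 10904 bases, had 356 of the 443 at or below its own value. The part of transcript length in the LRP1 and LRP2 values was not tested further.

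VLDLR, LRP8 and LRP4 have the core domain plan of the family and signal as well as transport. VLDLR and LRP8 (also called ApoER2) are the receptors of reelin, and LRP4 is the receptor of agrin at the nerve-muscle synapse and binds Wnt antagonists. LRP4 had 108, 118 and 118 CPM in control replicates 1, 2 and 3 and 32.2, 48.2 and 40.9 CPM in resistant replicates 1, 2 and 3. All 3 resistant libraries were below all 3 control libraries, by at least 2.24 times. The means were 115 ± 5.91 and 40.4 ± 8.0 CPM (SD, n = 3 each), with a log2 fold change of -1.50 (SE 0.14).

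LRP8 did not follow LRP4. It had 173, 180 and 161 CPM in control replicates 1, 2 and 3 and 144, 157 and 189 CPM in resistant replicates 1, 2 and 3, so the highest and the lowest of the 6 libraries were both resistant ones. Its log2 fold change was -0.07 (SE 0.11). VLDLR was lower in level, with 32.9, 23.5 and 24.1 CPM in control and 18.9, 26.6 and 15.8 CPM in resistant replicates 1, 2 and 3. Its groups overlapped through resistant replicate 2, and the log2 fold change was -0.37 (SE 0.23). The ratio of LRP8 to VLDLR in CPM was 6.54 ± 1.20 in control and 8.52 ± 3.16 in resistant cells (SD, n = 3 each), ranges that overlapped.

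LRP10, LRP11 and LRP12 are smaller members with fewer ligand-binding repeats. LRP10 shuttles between the trans-Golgi network and endosomes. It had 217, 201 and 195 CPM in control replicates 1, 2 and 3 and 150, 138 and 152 CPM in resistant replicates 1, 2 and 3. The groups were close but did not overlap, and the spread within each was small, at 5.53% of the mean in control and 4.97% in resistant cells. The log2 fold change of LRP10 was -0.47 (SE 0.10), the smallest in size of the 5 receptors called lower.

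LRP12, a receptor whose ligands are little known, had 134, 106 and 138 CPM in control replicates 1, 2 and 3 and 52.2, 49.6 and 46.2 CPM in resistant replicates 1, 2 and 3. The resistant libraries were tightly grouped, and the lowest control library was 2.03 times the highest of them. Its log2 fold change was -1.35 (SE 0.13). LRP11 was barely detected, with 0, 18 and 2 counts in control and 15, 9 and 10 counts in resistant replicates 1, 2 and 3. Those are 0, 3.39 and 0.587 CPM against 4.06, 2.12 and 2.05 CPM. The count of 0 in control replicate 1 allows up to 1.54 CPM if each count is 1 fragment, and the groups overlapped. The ratio of summed counts was 1.41 with an exact 95% interval of 0.790 to 2.59, or 0.654 to 3.63 on halved counts, for counting error only. LRP11 was not tested, and its interval includes a ratio of 1.

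The VPS10P receptors SORT1 and SORL1 were not called. SORT1, or sortilin, sorts proteins to lysosomes and binds apolipoprotein B in liver. It had 55.0, 46.0 and 29.6 CPM in control replicates 1, 2 and 3 and 32.2, 36.2 and 41.3 CPM in resistant replicates 1, 2 and 3. The control libraries alone spanned the whole range of the resistant ones, and the log2 fold change was -0.23 (SE 0.19). SORL1, a retromer-binding sorting receptor of the amyloid precursor protein, had 10.8, 12.4 and 8.51 CPM in control and 9.74, 9.87 and 17.0 CPM in resistant replicates 1, 2 and 3. Resistant replicate 3 alone stood above the control range, and the log2 fold change was 0.21 (SE 0.33), or -0.11 without that library. The endothelial markers VWF (26.2 CPM) and CDH5 (19.2 CPM) were also highest in resistant replicate 3. In the other libraries they reached at most 1.76 and 3.09 CPM. KDR and TEK peaked there too, in resistant replicate 3, at 42.6 and 3.27 CPM. PECAM1 instead was highest in control replicate 1, at 43.2 CPM against 41.7 CPM in resistant replicate 3. The part of these markers in the SORL1 value was not tested.

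Summed over the 10 receptors, the control libraries had 1101, 1023 and 1013 CPM and the resistant libraries 555, 614 and 654 CPM. LRP1 made up 32.6% ± 0.523 of that sum in control and 22.1% ± 1.84 in resistant cells, while LRP8 made up 16.4% ± 1.02 and 26.9% ± 1.85 (SD, n = 3 each). LRP1 exceeded LRP8 in each control library, with ratios of 1.82 to 2.08. In each resistant library it lay below LRP8, with ratios of 0.771 to 0.921. None of these sums, shares and ratios is scaled to transcript length, 14897 bases for LRP1 and 7648 bases for LRP8. Per kilobase, LRP1 and LRP8 had overlapping ranges in control cells, at means of 22.9 and 22.4 CPM.

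Levels between genes were compared per kilobase of the main GENCODE transcript, since long transcripts collect more counts. In control cells LRP12 (30.7 ± 4.21 CPM per kb) and LRP10 (29.7 ± 1.64) came first, with overlapping ranges. LRP1 (22.9 ± 1.11) and LRP8 (22.4 ± 1.24) followed and also overlapped each other, ahead of LRP4 at 14.2 ± 0.731. SORT1 (6.19 ± 1.83) and VLDLR (2.93 ± 0.575) stood apart from their neighbours. SORL1 (0.970), LRP11 (0.407) and LRP2 (0.366) closed the order, with ranges that overlapped from each to the next.

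In resistant cells LRP8 (21.4 ± 3.04 CPM per kb) and LRP10 (21.3 ± 1.06) came first, with overlapping ranges. LRP12 (12.0 ± 0.732) and LRP1 (9.05 ± 1.37) were next and did not overlap. SORT1 (5.20 ± 0.650) and LRP4 (5.01 ± 0.991) overlapped, where LRP4 had been above SORT1 in all control libraries. VLDLR (2.23 ± 0.606) and SORL1 (1.12 ± 0.380) kept places 7 and 8. LRP2 was last at 0.0285 ± 0.0298, below every library of LRP11.

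**Figure D2:**
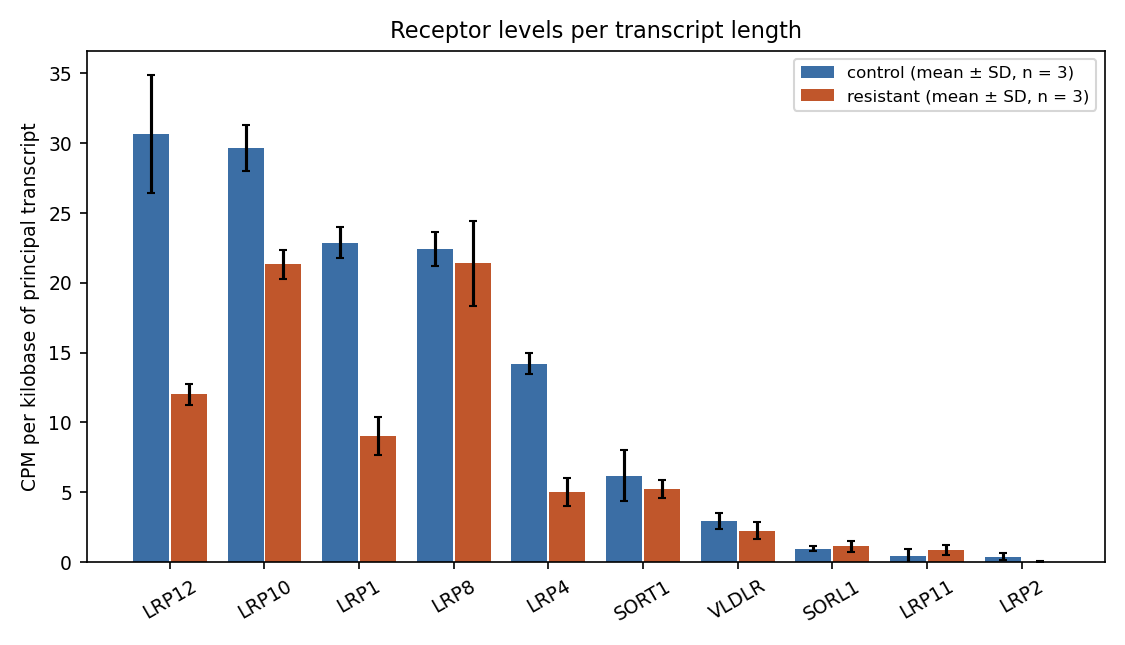
Mean level per kilobase of main transcript in control and resistant cells (bars, linear axis; error bars are SD, n = 3). LRP12, LRP1 and LRP4 are the tall control bars with short resistant partners, and LRP8 is nearly level at 22.4 and 21.4 CPM per kb.

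The 5 receptors called lower lie on 5 chromosomes. In GENCODE 29 (GRCh38; the authors' build is unknown here), LRP1 spans 57128493 to 57213351 on the plus strand of chromosome 12 with 89 exons in its main transcript. LRP2 spans 169127109 to 169362685 on the minus strand of chromosome 2 with 79 exons, and LRP4 46856868 to 46918642 on the minus strand of chromosome 11 with 38 exons. LRP10 spans 22871613 to 22881580 on the plus strand of chromosome 14 with 7 exons, and LRP12 spans 104489231 to 104589024 on the minus strand of chromosome 8 with 7 exons. Of the nearest tested genes on either side, DHRS9 and DCAF13 were called higher and STAT6 lower. DHRS9, 30.9 kb from LRP2, rose by a log2 fold change of 0.79 (SE 0.13, adjusted p = 1.76e-05), and DCAF13, 1046 kb from LRP12, by 0.69 (SE 0.10, adjusted p = 9.29e-07). FASTKD1 beside LRP2, ZFPM2 beside LRP12, CKAP5 and C11orf49 beside LRP4, MMP14 and RBM23 beside LRP10, and NXPH4 beside LRP1 were not called. ZFPM2, at -0.72 (SE 0.33), passed only without control replicate 3 (-1.01, adjusted p = 0.032).

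STAT6, a transcription factor of cytokine signalling, lies on the strand opposite to LRP1, overlaps it by 3647 bases, and was called lower, from 214 ± 9.93 to 166 ± 19.9 CPM (SD, n = 3 each; log2 fold change -0.36, SE 0.11, adjusted p = 0.00931). The STAT6 call was lost without resistant replicate 1 (adjusted p = 0.0839). Whether counting used strand is unknown here, and without strand reads in that overlap cannot be told apart. Antisense genes also overlap LRP1 (LRP1-AS, by 3000 bases), LRP4 (LRP4-AS1, by 17529 bases) and VLDLR (VLDLR-AS1, by 21526 bases). Shorter overlaps with antisense genes fall on LRP8, LRP11 and SORL1. A same-strand gene, AL355312.5, overlaps LRP11 by 45229 bases, the whole annotated span of LRP11. Apart from STAT6, none of these overlapping genes has a row in the count table.

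Under 14 alternatives of scaling, filter, test, design and libraries, the log2 fold change ranged from -1.40 to -1.20 for LRP1, from -1.64 to -1.36 for LRP4, from -0.49 to -0.43 for LRP10 and from -1.47 to -1.26 for LRP12. LRP2 ranged more widely, from -4.39 to -2.86, and on halved counts it did not pass the filter. Those of LRP8 (-0.18 to 0.03) and SORL1 (-0.11 to 0.36) crossed 0.

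**Figure D3:**
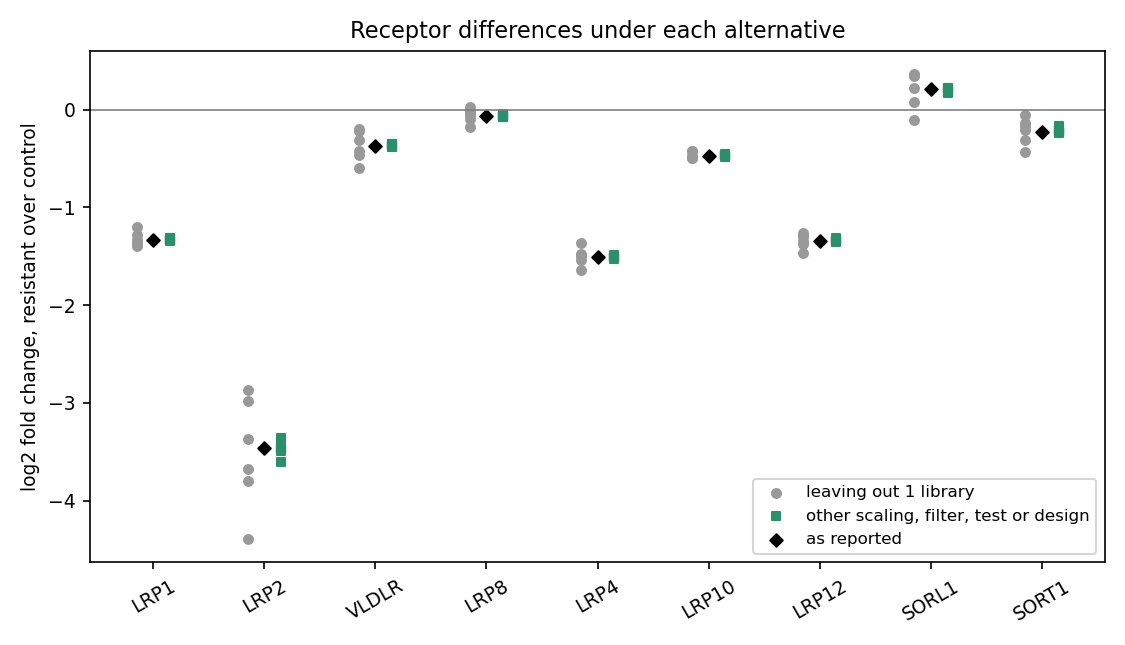
Log2 fold change (resistant over control) of each tested receptor as reported (black), with 1 library left out (grey) and under the other alternatives (green). LRP1, LRP4, LRP10 and LRP12 stay in narrow bands below 0, LRP2 spreads from -4.39 to -2.86, and LRP8 and SORL1 cross 0.

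Of the 13 other genes of the receptor families, which were listed by family membership, 6 were tested. Of these, 1 was called higher and 1 lower (33.3%, against 24.1% of all tested genes). Leaving out control replicate 3 left 2 called lower. LRP6, a Wnt co-receptor, fell from 147, 130 and 124 CPM in control replicates 1, 2 and 3 to 78.0, 100.2 and 94.1 CPM in resistant replicates 1, 2 and 3 (log2 fold change -0.55, SE 0.12, adjusted p = 0.000685). LDLRAD3 rose from 36.0, 40.9 and 37.6 CPM to 73.9, 65.4 and 60.1 CPM (0.79, SE 0.16, adjusted p = 0.000177). LRP5, a close relative of LRP6, was not called at -0.27 (SE 0.11, adjusted p = 0.0755), with every resistant library below every control library. CD320, the receptor for vitamin B12 bound to transcobalamin, had -0.12 (SE 0.16), and LRP3 0.33 (SE 0.31). LRP1B, SORCS1, SORCS2, SORCS3, LDLRAD1, LDLRAD2 and LDLRAD4 did not pass the filter.

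**Figure D4:**
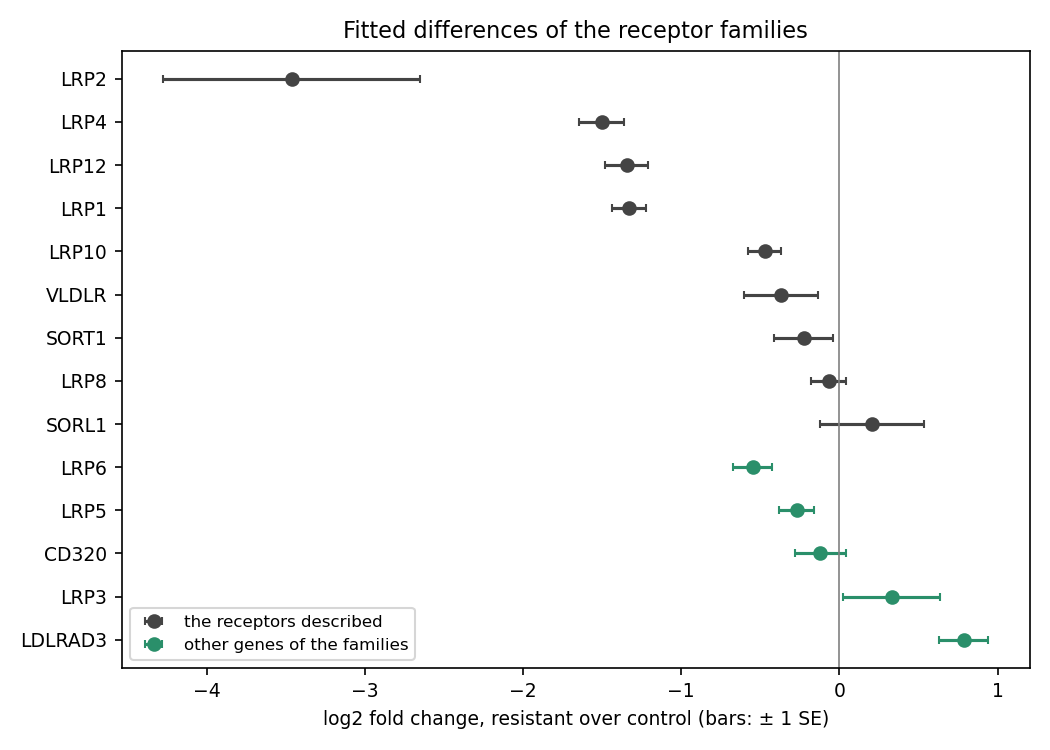
Log2 fold change (resistant over control) with ± 1 SE for the 9 tested receptors (dark) and other tested genes of the families (green). LRP2, LRP4, LRP12 and LRP1 lie furthest to the left, LRP6 lies at -0.55 and LDLRAD3 at 0.79.

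The machinery around the receptors was described with 8 lists of chaperones, ligands, partners, adaptors, coats, sorting factors, proteases and relatives, 131 genes of which 108 were tested. In these lists 15 were called higher and 20 lower, 32.4% against 24.1% of all tested genes, and the median log2 fold change was -0.01. The lists were chosen with earlier results of these data known, so nothing is read from that share or from those of single lists. Levels below are means ± SD with n = 3 per group, and adjusted p-values are from edgeR's quasi-likelihood test.

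The next list held chaperones and regulators of receptor turnover. FURIN, the protease that cleaves the LRP1 precursor, fell from 127 ± 5.94 to 74.3 ± 8.70 CPM (log2 fold change -0.77, SE 0.12, adjusted p = 7.78e-06). LRPAP1, the chaperone that keeps newly made receptors free of ligand, was not called at means of 35.1 and 37.6 CPM (control, then resistant), and neither were the chaperone HSP90B1 and the ubiquitin ligase MYLIP.

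Of 21 tested ligand genes, 3 were called lower and 3 higher (28.6%, against 24.1% of all tested genes). The median log2 fold change of the list was -0.05. Without resistant replicate 1, 5 were called higher. Clusterin, CLU, a ligand of LRP2 and LRP8, fell from 474 ± 35.8 to 286 ± 12.1 CPM (-0.73, SE 0.09). Hepatic lipase, LIPC, fell from 26.1 ± 4.64 to 10.6 ± 3.97 CPM (-1.28, SE 0.28), and apolipoprotein B, APOB, from 23.2 ± 5.79 to 8.08 ± 5.01 CPM (-1.47, SE 0.34). Prosaposin, PSAP, which sortilin carries to lysosomes, rose from 1464 ± 132 to 2115 ± 91.8 CPM (0.53, SE 0.08), and the growth factor midkine, MDK, from 508 ± 29.9 to 715 ± 62.5 CPM (0.49, SE 0.09). Thrombospondin, THBS1, was called at 0.46 (SE 0.13), but its groups overlapped. THBS1 was no longer called by DESeq2 (adjusted p = 0.189), nor by edgeR when control replicate 2 (0.0891) or resistant replicate 3 (0.116) was left out. Not called were RELN at 3.40 and 3.09 CPM, AGRN at 342 and 332 CPM and APOE at 6.50 and 6.56 CPM (means, control then resistant).

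Of 4 tested partners at the membrane, 2 were called higher and 1 lower. PLAUR, the urokinase receptor that LRP1 internalises with its bound protease and inhibitor, rose from 16.5, 19.0 and 21.1 CPM in control to 51.2, 44.0 and 46.2 CPM in resistant replicates 1, 2 and 3. Its groups were far apart, with a log2 fold change of 1.30 (SE 0.19, adjusted p = 1.67e-06). OCRL, an endosomal inositol phosphatase, was called at 0.42 (SE 0.12) and lost the call without resistant replicate 2 (adjusted p = 0.0767). CLCN5, an endosomal chloride transporter, was called at -0.67 (SE 0.19) and lost the call without resistant replicate 1 (adjusted p = 0.072). CUBN, the partner of LRP2 in kidney, was at 2.30 and 3.0 CPM and was not called.

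Of 12 tested adaptors of receptor tails, 4 were called lower and 0 higher (33.3%, against 24.1% of all tested genes). The median log2 fold change of the list was -0.19. The number called lower was 2 with no filter on low counts and when replicate 2 or 3 of either group was left out, and without resistant replicate 3 there was 1 called higher. DAB2, the clathrin adaptor of LRP2 and other family members, had 113, 126 and 121 CPM in control and 61.4, 61.1 and 69.4 CPM in resistant replicates 1, 2 and 3. The DAB2 groups did not overlap, with a log2 fold change of -0.91 (SE 0.13, adjusted p = 4.88e-07). The motor MYO6, which moves endocytic vesicles, fell from 83.7 ± 10.4 to 56.3 ± 11.97 CPM (-0.58, SE 0.15). SHC1 was called at -0.28 (SE 0.09), and the call was lost when any 1 of control replicates 1, 2 and 3 or resistant replicates 2 and 3 was left out (adjusted p of 0.0715, 0.0541, 0.0679, 0.0927 and 0.123) and with no filter on low counts (0.0531). NUMB, an endocytic adaptor, was called at -0.44 (SE 0.16, adjusted p = 0.0467) with overlapping groups, and lost the call in 7 of 14 alternatives. They include leaving out control replicate 2 or 3 (adjusted p of 0.077 and 0.308) and resistant replicate 2 or 3 (0.197 and 0.172).

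Of 21 clathrin coat and AP-2 genes, 4 were called lower and 3 higher (33.3%, against 24.1% of all tested genes). Leaving out resistant replicate 1 left 1 called higher. The median log2 fold change of the list was -0.07. Both dynamins on the list, which pinch off vesicles, fell: DNM2 from 256 ± 13.7 to 147 ± 14.8 CPM (-0.80, SE 0.10) and DNM1 from 80.0 ± 6.34 to 40.9 ± 8.08 CPM (-0.97, SE 0.15). The membrane-bending protein BIN1 fell from 57.4 ± 9.32 to 33.6 ± 5.21 CPM (-0.76, SE 0.17). PICALM, which controls the size of clathrin pits, rose from 225 ± 21.6 to 323 ± 4.17 CPM (0.52, SE 0.10). EPS15 was called at 0.50 (SE 0.14) but not without resistant replicate 1 (adjusted p = 0.0895). EPN2 was called at 0.51 (SE 0.17) but not when control replicate 1 or 3 (adjusted p of 0.0623 and 0.0891) or resistant replicate 1 or 3 (0.0569 and 0.0544) was left out. The clathrin chains CLTC, CLTA and CLTB were not called. CLTB came close, at 0.50 (SE 0.19, adjusted p = 0.0525), with every resistant library above every control library.

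Of 27 retromer and Golgi-endosome sorting genes, 5 were called higher and 3 lower (29.6%, against 24.1% of all tested genes). Leaving out control replicate 1 or resistant replicate 3 left 1 called lower. The median log2 fold change of the list was 0.07. The retromer subunits VPS35 and VPS26A rose, VPS35 from 230 ± 3.53 to 306 ± 7.42 CPM (0.41, SE 0.09) and VPS26A from 95.6 ± 4.20 to 141 ± 8.24 CPM (0.56, SE 0.11). EHD1, which drives recycling from endosomes, rose from 257 ± 28.4 to 399 ± 31.3 CPM (0.63, SE 0.10). SNX27, the adaptor that links cargo to retromer, fell from 142 ± 6.15 to 84.0 ± 7.47 CPM (-0.76, SE 0.12). VPS26B, the other form of the VPS26 subunit, was called at -0.64 (SE 0.22) but not when control replicate 1 or 3 (adjusted p of 0.0639 and 0.16) or resistant replicate 2 or 3 (0.0652 and 0.105) was left out. PACS1 was called at -0.36 (SE 0.12) but not when control replicate 1 (adjusted p = 0.121) or resistant replicate 1 or 3 (0.0723 and 0.106) was left out.

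Of 12 proteases of receptor shedding and intramembrane cleavage, 2 were called lower and 1 higher, with a median log2 fold change of -0.10. ADAM17, a sheddase that cleaves LRP1 and SORL1, fell from 92.1 ± 0.838 to 66.7 ± 4.17 CPM (-0.46, SE 0.13). ADAM10 was called at -0.29 (SE 0.10) and lost the call in 7 of 14 alternatives, which include leaving out control replicate 2 (adjusted p = 0.125), control replicate 3 (0.0935), resistant replicate 1 (0.1), resistant replicate 2 (0.0906) or resistant replicate 3 (0.0714). BACE2 rose from 3.10 ± 1.56 to 10.3 ± 0.705 CPM (1.62, SE 0.44, adjusted p = 0.00581), on 38 control and 133 resistant counts. The gamma-secretase genes PSEN2, NCSTN, PSENEN, APH1A and APH1B were not called.

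**Figure D5:**
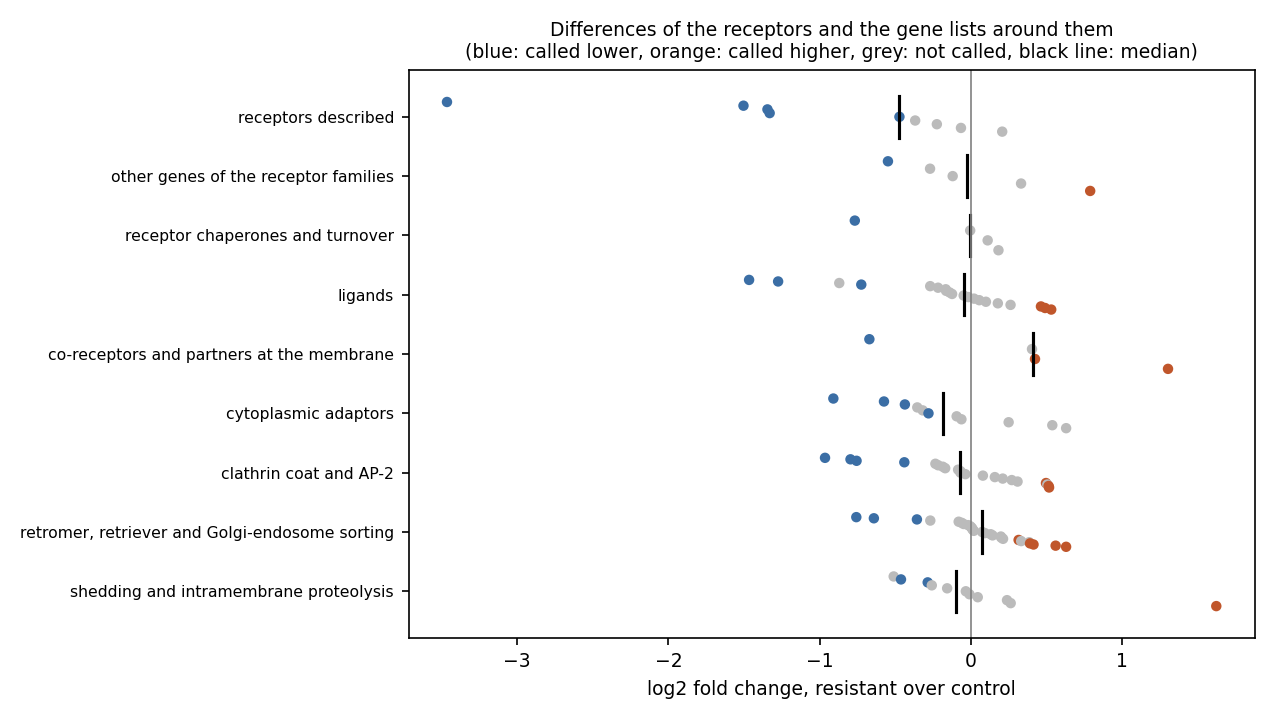
Log2 fold change (resistant over control) of the tested receptors (top row) and of genes of the 8 lists around them; blue points were called lower, orange points higher, grey points not called, and black lines are medians over all tested genes of a list, including some not drawn. List medians lie between -0.19 and 0.41, and single genes such as PLAUR at 1.30 and BACE2 at 1.62 lie far from them.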

How the data were processed

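The authors deposited raw counts, 1 whole number per gene symbol and library; the series table equalled the single-library files in 6 of 6 libraries. Per the submitters' processing notes, Trimmomatic, HISAT2 and Bowtie2 were used; roles, versions, counter, build and annotation: not given in the sources used here. Totals were 1913469 to 5345272 counts per library. Among counts of 1 to 20, 81.8 to 88.5% were even, so counting errors may be too small.

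Genes were filtered with filterByExpr, scaled by TMM and tested with edgeR 4.0.16 (R 4.3.3), fitting group alone, and p-values were Benjamini-Hochberg adjusted over 10804 genes. CPM uses TMM-scaled totals. Each SE is the absolute log2 fold change divided by the root of its F. The procedure was tested on simulated data. Alternatives were RLE and upper-quartile scaling, DESeq2 1.42.0, limma-voom (limma 3.58.1), 2 other filters, a replicate block, halved counts and leaving out each library. On halved counts, replicates of 1 group gave a chi-square of 1.77 to 2.85 per degree of freedom, a spread beyond counting error. Each library was kept as a sample of its own, but that spread cannot show whether replicates were separate cultures.

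The receptors and lists were chosen with earlier results of these data known. Named are all receptors, up to 3 called genes per list and direction with the smallest p, and the tested genes next to each called receptor; other genes were named after their values were seen. Of the list genes, MESD, VPS26C and VPS35L were not analysed here, and some others are not reported here. Transcript lengths are of the main GENCODE 29 transcript (APPRIS rank, then length), and promoters are from RefSeq. Figures used matplotlib 3.10.9.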

Additional observations from a re-analysis of the deposited data

How the results depend on the processing

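Over 14 alternatives the number of receptors called lower was 5, except on halved counts, where LRP2 did not pass the filter and the number was 4; 0 were called higher in each. All genes called lower numbered 973 to 1396 (1332 as reported) and higher 1028 to 1325 (1269), with the lowest counts when 1 library was left out. Of the genes in the lists around the receptors, 14 to 21 were called lower (20) and 13 to 16 higher (15). Of 125 values for the 9 tested receptors, 0 changed a call. Of 434 values for the 31 named list genes, 30 lost a call and 0 reversed a call. Of 167 values for the neighbours, NUMB and CDH1, 11 lost and 1 gained a call. With a replicate block, 1270 genes were called lower, and the receptors called lower again numbered 5; same-numbered replicates did not deviate together (correlations across genes of -0.015 to 0.033), and the block changed no call among those receptors and list genes, the 10 neighbours of called receptors, NUMB and CDH1. Depth limits LRP2 and LRP11 most, with 52 and 20 counts over the control and 6 and 34 over the resistant cells. The span of LRP11 also lies wholly within the same-strand gene AL355312.5, and the part of that overlap in its counts was not tested.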
